A study of Brassica napus with 17 samples.

Results

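The genes described here lie at the start of chromosome A05 and at the start of chromosome C04 of Brassica napus. They are the gene IDs BnaA05g00070D to BnaA05g06100D and BnaC04g00010D to BnaC04g07130D with at least 10 counts summed over 17 RNA-seq libraries. The rule keeps 517 genes of 604 IDs in the A05 block and 489 genes of 713 IDs in the C04 block, which is 1006 of the 75664 IDs that reach 10 counts among 101040 in all. The members were selected on counts in these same libraries, and the limits of the blocks were proposed with their levels known, so all values below are a description of the blocks and support nothing beyond them. In the A05 range 33 IDs had no count and 54 had fewer than 10. In the C04 range 109 had no count and 115 had fewer than 10. The IDs just outside the limit held 9 counts and those just inside held 10. A total of 29 A05 members and 46 C04 members held 10 to 19 counts.

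Brassica napus, oilseed rape, is an allotetraploid whose A and C subgenomes come from relatives of Brassica rapa and Brassica oleracea. Most genes therefore exist as an A copy and a C copy of near-identical sequence, and ancestral segments of an A chromosome have counterparts on a C chromosome. Exchanges between such counterparts are known in the species and can replace one copy by the other. The number of gene copies was not measured in these samples. How reads shared by both copies were counted is not given in the sources used here, which leaves the division of counts between the copies of any gene uncertain. The files pair no ID with a gene name or a role, so members are named by ID.

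All cultures came from late unicellular microspores, the immature haploid pollen cells, of the doubled haploid line DH12075 with a LEC1-GFP reporter. The 6 groups were untreated microspores at day 0 (3 libraries), cultures after 33 °C for 24 hours sampled at day 2 (3) and day 4 (3), and cultures given the same heat together with trichostatin A, a histone deacetylase inhibitor abbreviated TSA, sampled at day 2 (3), day 4 (3) and day 8 (2). TSA was at 0.5 µM for day 2 and at 0.05 µM for day 8, and the labels give both doses for day 4. After the heat the cultures stood at 25 °C, and each sample pooled many microspores. The replicates are called biological by the submitters, with no statement on which plants or isolations they share. Libraries held 2716279 to 31407037 counts, the lowest in day 0 replicate 3.

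A library stood apart in each heat-only group, and it was replicate 1 on both days. Replicate 1 differed from replicates 2 and 3 in both blocks, in opposite directions, while replicates 2 and 3 hardly differed from each other. Results that rest on the heat-only libraries are therefore given per library, and with and without replicate 1. The labels give a sequencing run for day 0, TSA day 2 and TSA day 8 and none for the other groups, so a run cannot be told apart from group.

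Levels are in CPM, counts per 1000000 with TMM-scaled library sizes, for members that passed the filter on low counts. That filter kept 449 A05 members and 386 C04 members among 64330 genes. The median over these members of the mean level was 7.13 CPM in the A05 block and 2.96 CPM in the C04 block, against 4.59 CPM over all genes tested. The 5 most abundant members made up 41.5% of the summed level of the A05 block and 41.9% of that of the C04 block. Across the 17 libraries the SD of log2 CPM had a median of 1.24 in the A05 block, 1.54 in the C04 block and 1.10 over all genes tested.

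The C04 block took a different share of all counts in different libraries of a same group. Shares are of raw totals, without the TMM factors. These factors were 1.34 to 1.40 at day 0 and 0.439 to 0.879 in the heat-only libraries. A share and a TMM-scaled level can therefore differ in order between groups. It held 0.353%, 0.349% and 0.325% of counts in the 3 day 0 libraries. In the heat-only libraries it held 0.244%, 0.627% and 0.628% at day 2 and 0.265%, 0.759% and 0.730% at day 4. Replicate 1 was thus the low library on both days, below every day 0 library, while replicates 2 and 3 were above every other library of the series. Without the 5 most abundant members the C04 block held 0.147%, 0.407% and 0.407% in heat-only day 2 and 0.131%, 0.325% and 0.320% in day 4, against 0.329%, 0.326% and 0.302% at day 0. By this share replicate 1 was still below every day 0 library. Replicates 2 and 3 were above the day 0 libraries at day 2 only, and at day 4 they lay among them. On the TMM scale they were above day 0 on day 4 too. The median C04 member stood at 4.15 and 4.38 CPM there, against 1.89, 1.85 and 1.31 CPM at day 0. With TSA the share was 0.202%, 0.213% and 0.245% at day 2, 0.197%, 0.180% and 0.217% at day 4, and 0.358% and 0.223% at day 8. The day 8 values hold BnaC04g06760D, which alone reached 1637 and 950 CPM there. With the 5 most abundant members left out, the C04 block held 0.134% and 0.102% of counts at TSA day 8, below all libraries of the other groups except heat-only day 4 replicate 1, at 0.131%.

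The A05 block did not follow the C04 block. Its share of counts was 0.848%, 0.849% and 0.861% at day 0. It was 0.872%, 0.880% and 0.983% with TSA at day 2, 0.889%, 0.876% and 0.915% at day 4, and 0.811% and 0.767% at day 8. In the heat-only libraries it was 1.49%, 0.870% and 0.876% at day 2 and 1.95%, 1.45% and 1.38% at day 4. There the highest library was replicate 1, the one that was lowest for C04. The share against day 0 rested on the 5 most abundant members. Without them the A05 block held 0.763%, 0.499% and 0.500% in heat-only day 2 and 0.747%, 0.455% and 0.445% in day 4, against 0.770%, 0.775% and 0.765% at day 0. By this share of raw totals replicate 1 was slightly below the day 0 libraries, and replicates 2 and 3 were far below them on both days. On the TMM scale the median A05 member stood at 2.91, 2.76 and 2.62 CPM at day 0. In heat-only replicates 2 and 3 it stood at 2.97 and 3.10 CPM at day 2 and at 3.08 and 3.22 CPM at day 4. The fall in share was thus not seen in the median level in CPM.

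Set side by side, the blocks divided their counts differently from library to library. The A05 block supplied 70.6%, 70.9% and 72.6% of the counts of both blocks at day 0. In heat-only day 2 it supplied 85.9% in replicate 1 and 58.1% and 58.2% in replicates 2 and 3. In heat-only day 4 the shares were 88.0%, 65.7% and 65.4%. With TSA they were 81.2%, 80.5% and 80.1% at day 2, 81.9%, 83.0% and 80.8% at day 4, and 69.4% and 77.5% at day 8. Over the rest of the tested genes of the 2 chromosomes, the A05 part of the counts was 49.8%, 46.2% and 46.0% in heat-only day 2, a much smaller difference between replicates.

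**Figure D1:**
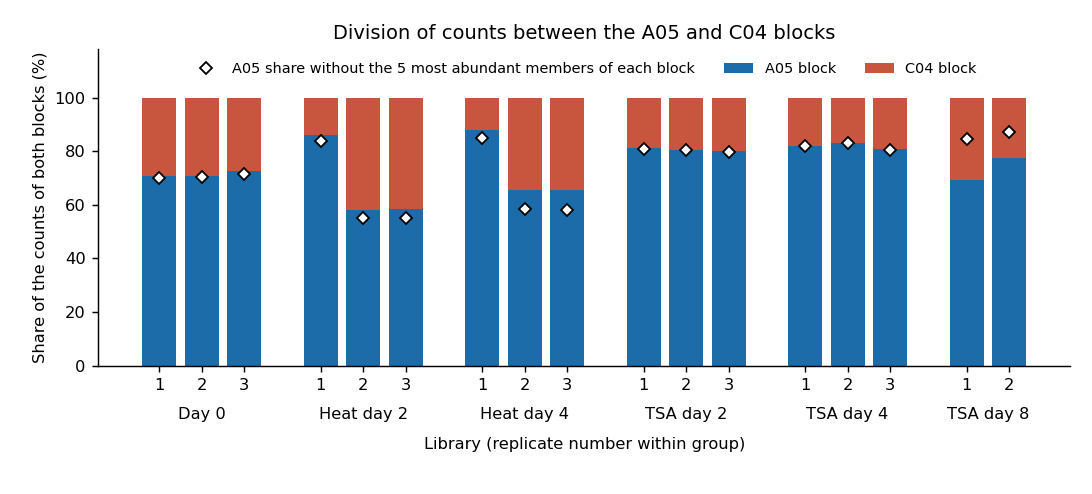
Share of the counts of both blocks held by the A05 block (blue) and the C04 block (red) in each of 17 libraries, in percent, with groups on the x axis. Diamonds give the A05 share without the 5 most abundant members of each block, which is 83.8%, 55.1% and 55.1% in heat-only day 2 and 84.6% and 87.1% at TSA day 8.

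Without the 5 most abundant members of each block, the sum of both blocks was nearly the same in the 3 heat-only day 2 libraries, while its division was not. The blocks together then held 0.910%, 0.906% and 0.908% of counts. Without those members the A05 block supplied 83.8% of the sum in replicate 1 and 55.1% in each of replicates 2 and 3. At day 4 the sum was 0.878%, 0.780% and 0.765%, of which A05 supplied 85.1%, 58.3% and 58.2%. At TSA day 8 the sum was 0.870% and 0.793%, of which A05 supplied 84.6% and 87.1%.

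A share of counts leans on abundant genes, so each block was also described by its median member. The deviation of a gene in a library is its log2 CPM minus its mean over the 17 libraries, with the median over all genes tested set to 0. The median deviation of the C04 block was 0.49, 0.42 and 0.20 at day 0. In heat-only libraries it was -0.12, 1.16 and 1.19 at day 2 and -0.15, 1.26 and 1.20 at day 4. With TSA it was -0.34, -0.26 and -0.003 at day 2, -0.42, -0.51 and -0.06 at day 4, and -1.72 and -1.84 at day 8. The high libraries were thus replicates 2 and 3 of both heat-only groups, and the low ones were those of TSA day 8.

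The A05 block covered a narrower range. Its median deviation was -0.16, -0.11 and -0.13 at day 0, and 0.08, -0.36 and -0.42 in heat-only day 2. It was 0.09, -0.46 and -0.34 in heat-only day 4. With TSA it was 0.17, 0.22 and 0.21 at day 2, 0.28, 0.35 and 0.33 at day 4, and 0.01 and 0.01 at day 8. Heat-only replicates 2 and 3 were the low libraries of A05 and the high ones of C04. At TSA day 8 the low C04 values stood beside A05 values near 0.

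**Figure D2:**
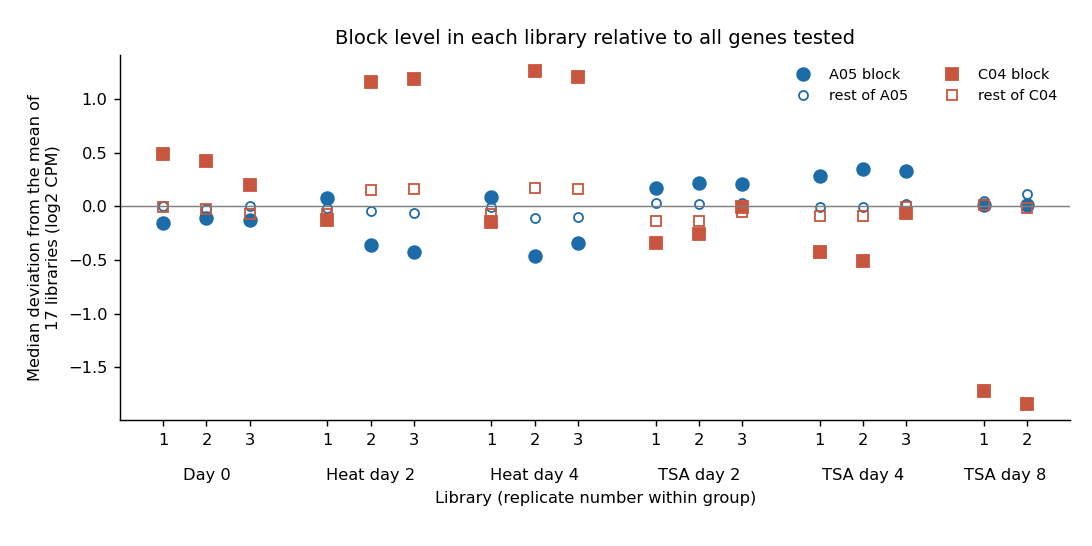
Median deviation of log2 CPM from the mean of 17 libraries for members of the A05 block (filled blue circles), members of the C04 block (filled red squares) and the other tested genes of each chromosome (open symbols), per library. The C04 block runs from -1.84 at TSA day 8 to 1.26 in heat-only day 4, while the rest of C04 stays between -0.13 and 0.18.

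The other tested genes of the same chromosomes, 2244 on A05 and 2838 on C04, moved far less. Their median deviation stayed between -0.10 and 0.12 on A05 and between -0.13 and 0.18 on C04. The rest of C04 was at -0.07 in heat-only day 2 replicate 1 and at 0.15 and 0.16 in replicates 2 and 3, the same order as in the block.

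In CPM, the median C04 member stood at 1.71, 4.41 and 4.17 in the heat-only day 2 libraries and at 1.59, 4.15 and 4.38 in those of day 4. It was at 1.89, 1.85 and 1.31 at day 0, and at 0.106 and 0.115 at TSA day 8. The median A05 member stood at 4.77, 2.97 and 3.10 in heat-only day 2, at 4.59, 3.08 and 3.22 in day 4, and at 5.05 and 4.43 at TSA day 8.

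Many C04 members had no count at TSA day 8. Of 489 members, 246 and 227 were at 0 there, against 57, 56 and 78 with TSA at day 2 and 59, 83 and 59 at day 4. At day 0 the counts were 83, 89 and 191, the last in the library with 2716279 counts. With each library thinned to 2500000 counts, 308 and 307 members were at 0 at TSA day 8 and 143 to 201 in the other libraries. Of 517 A05 members, 121 and 98 were at 0 at TSA day 8. After thinning 160 and 157 were, within the range of 88 to 176 in the other libraries. Over all 101040 IDs, without thinning, 59668 and 62059 had a count at TSA day 8. With TSA at day 2, 74008, 73393 and 69981 had one, and at day 4, 73574, 69557 and 72522. Zeros were thus more frequent at TSA day 8 than in the earlier TSA libraries over all IDs as well. A level of 0 is bounded by 3 counts, which stand for 0.159 and 0.115 CPM in the TSA day 8 libraries, and these limits cover counting error only.

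Differences between libraries of a same group were then taken gene by gene. In heat-only day 2, replicate 2 minus replicate 1 had a median of 1.38 on the log2 scale over C04 members, a 2.60-fold difference, and replicate 3 minus replicate 1 had a median of 1.30. In day 4 the medians were 1.45 for both. Replicate 3 minus replicate 2 had a median of -0.01 at day 2 and -0.005 at day 4. Over A05 members the medians against replicate 1 were -0.42 and -0.44 at day 2 and -0.44 and -0.50 at day 4, and those of replicate 3 minus replicate 2 were 0 and -0.005.

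**Figure D3:**
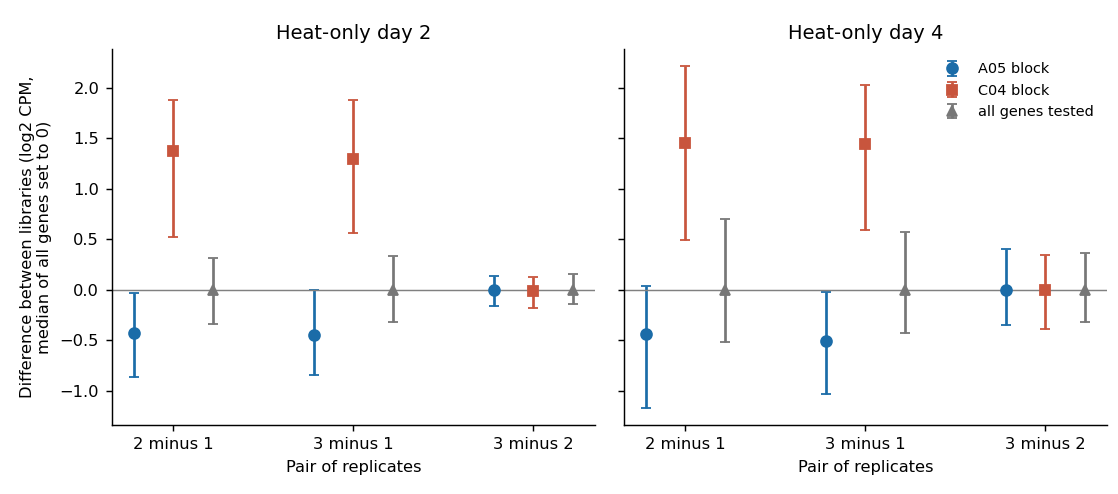
Difference in log2 CPM between pairs of heat-only libraries at day 2 (left) and day 4 (right), with the median over all genes tested set to 0. Points are medians and bars run from the first to the last quartile over 449 A05 members, 386 C04 members and 64330 genes. Both pairs with replicate 1 have C04 medians of 1.30 to 1.45 and A05 medians of -0.50 to -0.42, and the pair of replicates 2 and 3 lies at 0.

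The difference was spread over most C04 members. In replicate 2 minus replicate 1 of day 2, 239 of 386 C04 members (61.9%) were higher by at least 1 log2 unit, against 6.11% of all genes tested, and 8 were lower by as much. A total of 158 C04 members (40.9%) were at least 1 unit above replicate 1 in both other libraries on both days, against 1.85% of all genes tested and 5 A05 members. By sign alone, 286 C04 members (74.1%) were above replicate 1 in all 4 of these differences, against 18.0% of all genes. In the A05 block 238 members (53.0%) were below it in all 4, against 17.2% of all genes and 12 C04 members. Across C04 members the difference of replicate 2 from replicate 1 at day 2 correlated with that at day 4 (Pearson 0.41, n = 386), against 0.37 over 449 A05 members and 0.22 over all genes. Genes are not independent replicates, and each pair of libraries differs in depth.

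Within the other groups the blocks differed less between libraries. The widest C04 median was 0.38, for replicate 3 minus replicate 2 of TSA day 4, and 70.5% of C04 members had a positive difference there. The A05 median of that pair was 0.006. Between the TSA day 8 libraries the medians were -0.05 for C04 and -0.04 for A05.

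Along the gene order the C04 pattern was continuous up to a point inside the range. In steps of 500 ID numbers, the first 13 steps, up to number 6490, all had higher medians in heat-only day 2 replicate 2 than in replicate 1. Over the 346 tested members up to number 6490 the medians against replicate 1 were 1.43 and 1.40 at day 2 and 1.57 and 1.49 at day 4. Over the 40 tested members from 6500 to 7130 they were 0.23, 0.23, 0.11 and -0.02. The 42 tested genes from 7140 to 8000, outside the block, had 0.12, 0.18, 0.24 and 0.11. The division at number 6490 was chosen after the values were seen.

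The TSA day 8 levels changed near the same ID number. Up to 6490 the median deviation was -2.02 and -1.96 in the 2 libraries. From 6500 to 7130 it was 0.62 and -0.47. Of the 442 C04 members up to 6490, 239 and 214 had no count at TSA day 8. These 442 members held 0.0881% and 0.0738% of counts there, against 0.307%, 0.303% and 0.284% at day 0. With C04 counted up to this number, the A05 block supplied 90.2% and 91.2% of the counts of both at TSA day 8.

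**Figure D4:**
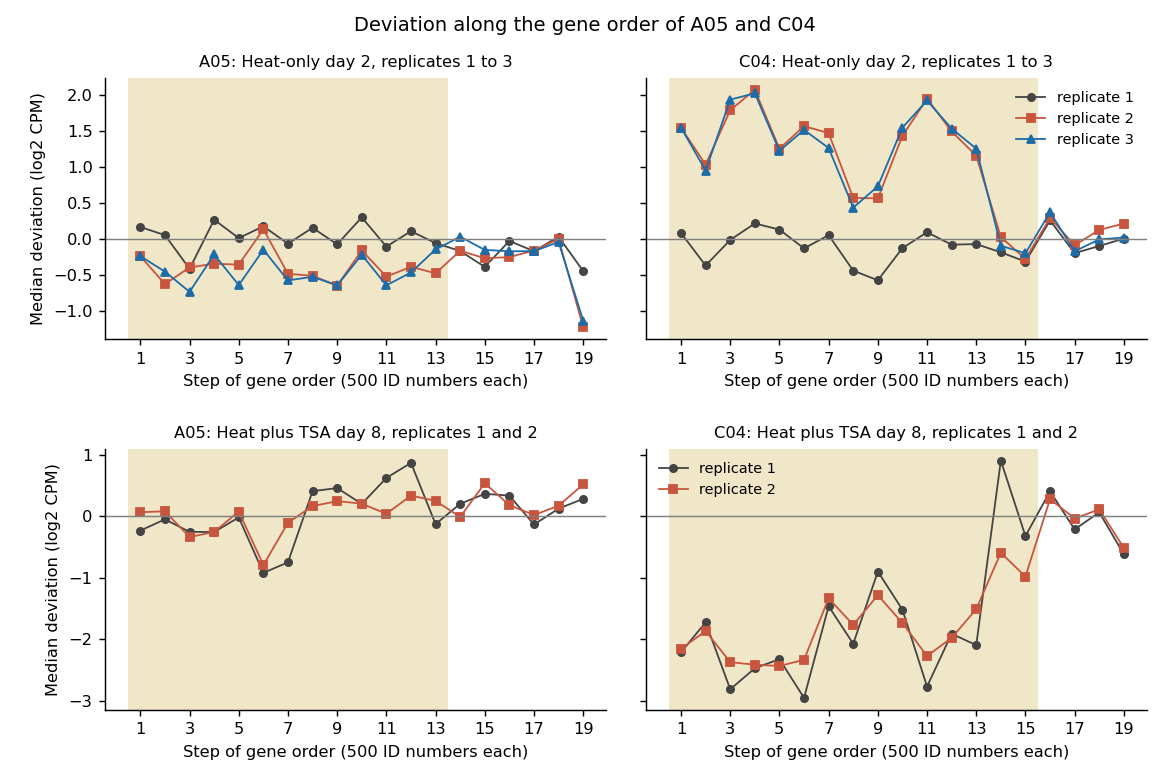
Median deviation of log2 CPM in steps of 500 gene ID numbers along A05 (left) and C04 (right), for the libraries of heat-only day 2 (top) and TSA day 8 (bottom). Steps that hold members are shaded. On C04 heat-only replicates 2 and 3 lie above replicate 1, and both TSA day 8 libraries lie below 0, over the first 13 steps.

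Just beyond the A05 block the difference was near 0 at day 2, and at day 4 it was smaller but still negative. Over the 449 tested members of the A05 block the medians against replicate 1 were -0.42, -0.44, -0.44 and -0.50. The 61 tested genes from 6110 to 7000 had -0.05, 0, -0.25 and -0.17. No gene with a number below 70 was tested. In 1904 windows of 30 neighbouring tested genes over the genome, all 12 windows wholly inside the C04 block lay above the 99th percentile of the other windows for replicate 2 minus replicate 1 at day 2, with medians from 0.96 to 1.71 against 0.79. The highest window elsewhere, at 1.70, lay further along C04, so a difference of this size was not limited to the block. Of 14 A05 windows 12 lay below the 1st percentile, at -0.28. At TSA day 8, 10 and 11 of the 12 C04 windows lay below the 1st percentile. The window values that placed the blocks are not independent of this count.

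In the reference assembly Da-Ae, 10 A05 members and 23 C04 members were listed by the same ID. Of the 10, 9 were on chromosome A5, and BnaA05g02560D was on C4. All 23 were on C4. BnaA05g02560D, singled out after its match was seen, had 3.45, 3.27 and 3.41 CPM at day 0. It had 2.83, 2.24 and 1.73 CPM in heat-only day 2, then 2.47, 2.14 and 2.40 CPM in heat-only day 4, and 8.77 and 9.73 CPM at TSA day 8. At TSA day 8 it was above its day 0 level. Its highest heat-only library was replicate 1 on both days, at day 4 by a small margin over replicate 3. That order was held by 238 of the 449 tested A05 members. What its match on C4 means for its counts was not tested.

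The C04 members described next had heat-only replicate 1 below replicates 2 and 3, and their lowest levels at TSA day 8. Of them only BnaC04g00010D had heat-only replicates 2 and 3 above day 0, as the block median did. Other members went against the replicate order: BnaC04g00950D had replicate 1 highest at day 2, and BnaC04g03070D at day 4. BnaC04g00010D, the first member, had 6.91, 7.58 and 8.65 CPM at day 0. It had 6.41, 26.6 and 26.1 CPM in heat-only day 2, against 7.41, 23.5 and 21.7 CPM in heat-only day 4. With TSA it had 2.00, 1.69 and 2.21 CPM at day 2, 1.28, 1.29 and 1.85 CPM at day 4, and 0 and 0.115 CPM at day 8. Replicate 1 of each heat-only group was close to day 0, and TSA libraries were below all others.

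BnaC04g00500D had 31.6, 30.4 and 37.8 CPM at day 0. It had 12.0, 22.9 and 22.9 CPM in heat-only day 2, against 10.2, 15.0 and 17.3 CPM in heat-only day 4. With TSA it had 8.56, 8.93 and 9.87 CPM at day 2, 6.37, 5.59 and 9.55 CPM at day 4, and 2.82 and 2.71 CPM at day 8. The day 8 libraries lay below all others, and replicate 1 was the low heat-only library on both days. Among C04 members with at least 10 CPM in a compared group it had the lowest p of those lower at TSA day 8 than at day 0, with a log2 fold change of -3.58 ± 0.33 (SE) and an adjusted p of 8.05e-08 (edgeR quasi-likelihood test, Benjamini-Hochberg).

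BnaC04g04460D was higher at day 0 than in any culture. It had 86.1, 93.4 and 94.4 CPM at day 0, and 3.58, 14.8 and 14.6 CPM in heat-only day 2. It had 4.23, 10.6 and 11.9 CPM in heat-only day 4. With TSA it had 8.83, 8.07 and 4.99 CPM at day 2, 2.89, 3.00 and 2.83 CPM at day 4, and 0 in both libraries of day 8. Replicate 1 was again below replicates 2 and 3 in both heat-only groups.

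The most abundant C04 members were high in heat-only cultures alone or at TSA day 8 alone. BnaC04g00460D had 721, 1366 and 1351 CPM in heat-only day 2, against 1542, 7692 and 6514 CPM in heat-only day 4. It had at most 1.15 CPM at day 0, TSA day 2 and TSA day 8, and 15.4, 33.6 and 2.69 CPM at TSA day 4. BnaC04g00150D had 325, 837 and 805 CPM in heat-only day 2, against 225, 729 and 775 CPM in heat-only day 4, with at most 8.64 CPM elsewhere. In both genes replicate 1 was the low heat-only library. BnaC04g00440D, with BnaC04g00460D the most variable, had 85.4, 169 and 171 CPM in heat-only day 2, against 183, 1233 and 978 CPM in heat-only day 4.

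BnaC04g06760D, which lies beyond number 6490, had at most 15.1 CPM in all libraries other than the 1637 and 950 CPM of TSA day 8. The fold change from TSA day 4 was 8.47 ± 0.69 on the log2 scale (SE), with an adjusted p of 1.17e-07 (edgeR quasi-likelihood test, Benjamini-Hochberg). It was chosen as the called member with the lowest p in that direction among those with at least 10 CPM in a compared group.

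The C04 members with the smallest SD over the 17 libraries, among those with a mean of at least 10 CPM, were BnaC04g06900D, which lies beyond number 6490, and BnaC04g03070D. Small differences between their libraries follow from this choice. BnaC04g06900D had 38.7, 34.9 and 34.2 CPM in heat-only day 2, then 41.3, 32.8 and 35.5 CPM in heat-only day 4, and 20.2 and 15.6 CPM at TSA day 8. BnaC04g03070D had 24.4, 34.3 and 32.8 CPM in heat-only day 2, then 18.2, 14.6 and 15.4 CPM in heat-only day 4, and 36.0 and 32.8 CPM at TSA day 8. At day 0 it had 53.2, 53.0 and 55.9 CPM. The last member, BnaC04g07130D, had 3.05, 2.03 and 1.28 CPM in heat-only day 2, and 0.425 and 0.191 CPM at TSA day 8. The nearest tested gene beyond the range, BnaC04g07140D, had 1.86, 1.22 and 1.96 CPM and 0 and 0.115 CPM in the same libraries.

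Among A05 members the highest levels were in heat-only cultures. BnaA05g00810D had 6499, 3024 and 3000 CPM in heat-only day 2, against 14299, 16596 and 13539 CPM in heat-only day 4. It had 2.10 to 4.13 CPM at day 0. With TSA it had 2.03, 3.44 and 33.9 CPM at day 2, 25.0, 70.0 and 123 CPM at day 4, and 1.17 and 6.03 CPM at day 8. BnaA05g04680D had 2160, 811 and 780 CPM in heat-only day 2, against 3916, 3856 and 3557 CPM in heat-only day 4. The third most abundant, BnaA05g00800D, had 650, 217 and 223 CPM and then 1472, 2206 and 1678 CPM. In all 3 genes replicate 1 was more than the other heat-only day 2 libraries, and at day 4 this held in BnaA05g04680D but not in the other two.

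The steadiest A05 members, BnaA05g01860D and BnaA05g00110D, differed in the place of replicate 1. BnaA05g01860D had 24.3, 25.4 and 25.4 CPM at day 0. It had 36.5, 28.5 and 27.8 CPM in heat-only day 2, against 31.2, 19.7 and 20.0 CPM in heat-only day 4. At TSA day 8 it had 18.3 and 22.7 CPM. BnaA05g00070D, the first member, had 11.2, 8.26 and 6.47 CPM in heat-only day 2, then 8.11, 6.69 and 7.10 CPM in heat-only day 4, and 16.7 and 21.0 CPM at TSA day 8. In both genes replicate 1 was the high heat-only library. BnaA05g00110D went the other way on both days, with 49.2, 59.7 and 59.4 CPM in heat-only day 2 and 37.9, 42.0 and 39.0 CPM in day 4.

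**Figure D5:**
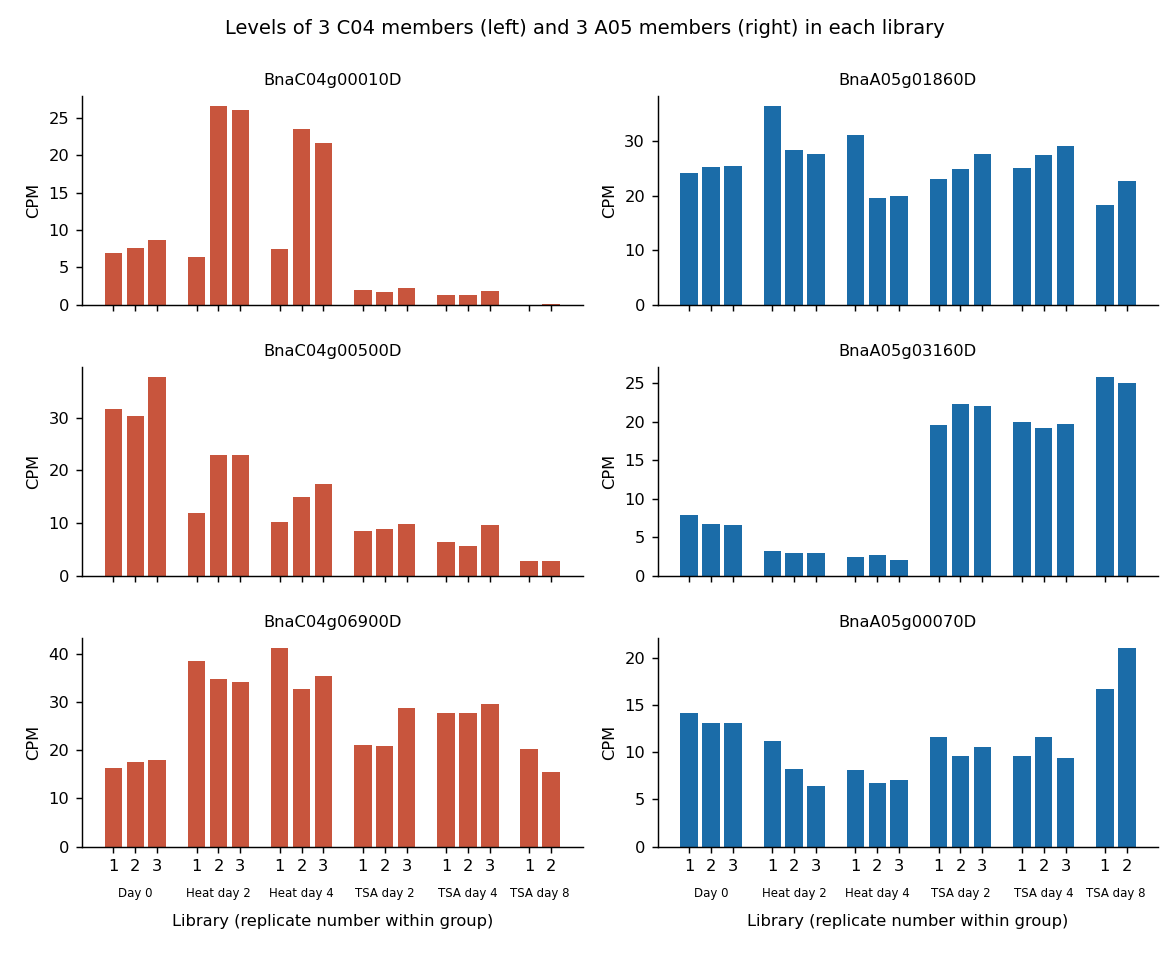
Level in CPM of 3 C04 members (left column, red) and 3 A05 members (right column, blue) in each library, with groups on the x axis. BnaC04g00010D reaches 26.6 CPM in heat-only day 2 replicate 2 against 6.41 in replicate 1, while BnaA05g01860D has 28.5 and 36.5 CPM in the same libraries.

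The last A05 member, BnaA05g06100D, had 11.8, 12.4 and 7.61 CPM at day 0, 2.98, 3.66 and 3.10 CPM in heat-only day 2, and 13.7 and 7.14 CPM at TSA day 8. The next tested gene, BnaA05g06110D, outside the block, had 21.7, 17.5 and 16.7 CPM in heat-only day 2, against 16.9, 5.75 and 9.17 CPM in heat-only day 4.

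Adding TSA to the heat was compared with heat alone at each day over all genes. Calls are genes with adjusted p under 0.05 in edgeR's quasi-likelihood test, with Benjamini-Hochberg adjustment over 64330 genes. At day 2 with TSA, 197 A05 members were higher and 98 lower, and 67 C04 members higher and 195 lower, against 34.8% of all genes higher and 31.6% lower. The median log2 fold change was 0.52 for A05, -1.09 for C04 and 0.06 for all genes. Without heat-only replicate 1 of both days, 222 A05 members were higher and 83 lower, and 66 C04 members higher and 230 lower. Counts over all genes in that fit are not given here, so its block counts are not set against them. Without replicate 1 of day 2 alone, the counts were 215 and 77 in A05 and 58 and 220 in C04. Over all genes they were then 21984 higher and 18873 lower, against 22363 and 20338 in the main fit.

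At day 4 with TSA, 233 A05 members were higher and 85 lower, and 58 C04 members higher and 167 lower, against 40.3% and 27.3% of all genes. The medians were 1.07 for A05, -0.85 for C04 and 0.44 for all genes. Without heat-only replicate 1 of both days, 221 A05 members were higher and 90 lower, and 37 C04 members higher and 223 lower. For that fit too, counts over all genes are not given here. Without replicate 1 of day 4 alone, 215 A05 members were higher and 87 lower, and 35 C04 members higher and 207 lower. Over all genes 20985 were then higher and 19837 lower, against 25947 and 17566 in the main fit. Without replicate 2 of day 4, 38 C04 members were higher, and 20051 of all genes. Scaling by library totals moved the median of all genes to 0.72 at day 2 and 1.58 at day 4. The C04 medians were then -0.46 and 0.27, still below those of all genes, with 90 higher and 149 lower at day 2 and 120 higher and 98 lower at day 4. The A05 medians were 1.19 and 2.14, with 265 higher and 58 lower and then 323 higher and 55 lower. Over all genes there were 31894 higher and 11936 lower at day 2, and 41352 and 9825 at day 4.

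The C04 difference with TSA depended on which heat-only library was taken. The mean of the TSA day 2 libraries minus heat-only replicate 1, with the median of all genes at 0, had a median of -0.09 over C04 members. Against replicates 2 and 3 it was -1.38 and -1.35. At day 4 the medians were -0.23, -1.50 and -1.49. Over A05 members they were 0.10, 0.53 and 0.62 at day 2 and 0.27, 0.78 and 0.78 at day 4. What sets replicate 1 apart was not tested.

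Some members differed with TSA against each heat-only library. BnaA05g00270D had 187, 127 and 122 CPM in heat-only day 2 and 0.177, 0.276 and 0.511 CPM with TSA. It had 133, 99.1 and 133 CPM in heat-only day 4 and 0.890, 1.12 and 1.53 CPM with TSA. Its log2 fold changes were -8.92 ± 0.40 and -6.69 ± 0.35 (SE). In edgeR's quasi-likelihood test the Benjamini-Hochberg adjusted p was 7.02e-11 at day 2 and 2.19e-10 at day 4. BnaA05g05930D had 3.05, 2.24 and 2.41 CPM in heat-only day 2 and 64.2, 72.1 and 98.0 CPM with TSA. BnaA05g03160D had 2.47, 2.67 and 2.07 CPM in heat-only day 4 and 19.9, 19.2 and 19.7 CPM with TSA. Each of these 3 genes was named as the called A05 member with the lowest p in its direction. The choice was among members with at least 10 CPM in a compared group. That the libraries of the groups do not overlap in them follows from this choice.

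In the C04 block BnaC04g02280D had 164, 181 and 175 CPM in heat-only day 2 and 0.471, 0.706 and 0.511 CPM with TSA. In heat-only day 4 it had 414, 1371 and 895 CPM, and 1.98, 2.76 and 1.78 CPM with TSA. BnaC04g06690D, beyond number 6490, had 1.79, 1.22 and 1.82 CPM in heat-only day 2 and 12.9, 12.3 and 12.5 CPM with TSA. BnaC04g07120D, in the same stretch, had 1.94, 2.94 and 2.07 CPM in heat-only day 4 and 15.5, 20.7 and 21.5 CPM with TSA. Both were named as the C04 member called higher with the lowest p at that day among those with at least 10 CPM in a compared group. BnaC04g02280D was named in the same way among those called lower, on both days.

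Day 0 served as the base for heat-only day 2. In the A05 block 120 members were called higher and 124 lower, and in the C04 block 130 higher and 41 lower, against 31.1% and 25.3% of all genes. The medians were 0 for A05, 0.63 for C04 and 0.07 for all genes. Without heat-only replicate 1 of both days there were 115 and 139 in A05 and 193 and 31 in C04, with no count over all genes given here. Without replicate 1 of day 2 alone there were 112 and 128 in A05 and 173 and 28 in C04. Over all genes there were then 19678 higher and 13737 lower, against 19992 and 16302 in the main fit. Scaled by library totals the median of all genes was -0.57, and the C04 block had 89 higher and 94 lower with a median of 0, the A05 block 81 and 183 with a median of -0.68. Over all genes there were then 12721 higher and 27716 lower. The day 0 mean minus each heat-only day 2 library had C04 medians of 0.31, -0.81 and -0.81, so day 0 lay above replicate 1 and below replicates 2 and 3.

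From heat-only day 2 to day 4, 94 A05 members were called higher and 88 lower, and 71 C04 members higher and 41 lower, against 22.2% and 23.2% of all genes. The C04 median was -0.05. Replicate 1 is in both of these groups, and without it the counts were 120 and 69 in A05 and 109 and 43 in C04. Counts over all genes in that fit are not given here, so the change is not read as particular to the blocks. Without replicate 1 of day 2 alone the block counts were 140 and 52 in A05 and 71 and 53 in C04. Over all genes there were then 17165 higher and 10040 lower, against 14267 and 14918 in the main fit. Without replicate 1 of day 4 alone there were 104 and 90 in A05 and 120 and 14 in C04. Over all genes that fit had 18656 higher and 9869 lower, so all genes moved as well. Without heat-only day 4 replicate 2 the C04 block had 73 calls in all, against 112, and all genes had 14645 higher and 7493 lower. Leaving out each heat-only library in turn, the calls lower ran from 11 (without day 2 replicate 2) to 53 in C04 and from 46 (without day 4 replicate 2 or replicate 3) to 90 in A05. The calls lower over all genes moved as well, for example to 7753 without day 2 replicate 2. The split moved with the scaling. With DESeq2's size factors in edgeR (RLE) the median of all genes was 0.28, with 128 and 59 calls in A05 and 95 and 25 in C04. Over all genes there were then 19220 higher and 9514 lower. With library totals the median of all genes was -0.70, with 53 and 178 calls in A05 and 39 and 144 in C04. Over all genes there were then 7670 higher and 28040 lower. In both settings the blocks moved the same way as all genes. BnaC04g00950D, with 40.4, 18.7 and 21.5 CPM at day 2 and 138, 342 and 221 CPM at day 4, was the C04 member with the lowest p among those higher with at least 10 CPM in a compared group. Its replicate 1 was the highest library at day 2, the reverse of the block, and the lowest at day 4.

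TSA cultures of day 2 against day 0 had 175 A05 members called higher and 91 lower, and 84 C04 members higher and 134 lower, against 32.9% and 28.7% of all genes. The medians were 0.40 for A05, -0.54 for C04 and 0.02 for all genes. BnaA05g01020D was lower in every culture, with 104, 125 and 157 CPM at day 0 and at most 0.294 CPM at TSA day 2. With no filter on low counts, the fit covered 517 A05 members, 489 C04 members and 88659 genes, so its counts have other totals. The median of all genes was then 0.25. Of the A05 members 203 were higher and 61 lower, and of the C04 members 101 higher and 104 lower. Of all 88659 genes 25401 were higher and 13481 lower.

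From TSA day 2 to day 4 few genes were called. There were 24 A05 members higher and 12 lower, and 7 C04 members higher and 2 lower, against 4.04% and 2.36% of all genes. BnaA05g03420D had 104, 82.1 and 256 CPM at day 2 and 9.88, 15.9 and 18.3 CPM at day 4. BnaC04g02760D had 19.4, 13.6 and 56.8 CPM and then 6.09, 6.35 and 6.98 CPM. It was one of the 2 C04 members called lower. These counts, like those over all genes, hang on single libraries. Without TSA day 2 replicate 1 there were 11 calls in A05 and 3 in C04, without TSA day 4 replicate 1 there were 18 and 5, and without TSA day 4 replicate 2 there were 17 and 4. Over all 64330 genes the same fits had 745 higher and 598 lower, 1756 and 593, and 1330 and 759. The main fit had 2596 and 1518, so the fall in calls was not particular to the blocks.

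The TSA day 8 libraries differed from the earlier TSA libraries in the C04 block far more than in the A05 block. Against TSA day 4, 29 C04 members were called higher and 235 lower, and 77 A05 members higher and 191 lower, against 23.4% and 35.0% of all genes. The medians were -2.85 for C04, -0.63 for A05 and -0.29 for all genes. Against day 0, 36 C04 members were higher and 223 lower, and 139 A05 members higher and 111 lower, against 29.0% and 29.2% of all genes. The medians were -2.37 for C04 and 0 for both A05 and all genes. The fitted medians include genes with no count at day 8, whose fold changes depend on the prior count.

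By library, 157 C04 members (40.7%) were lower in both TSA day 8 libraries than in all 15 others, against 12.9% of all genes and 57 A05 members. Above all others were 16 C04 members and 59 A05 members, against 13.9% of all genes. At most 3 counts in each day 8 library were held by 186 C04 members (48.2%) and 76 A05 members, against 19.1% of all genes. In bulk samples fewer cells with a gene active and less RNA per cell cannot be told apart. The titles give the day 8 cultures a lower TSA dose than those of day 4, while the treatment field gives both the same. By the titles, dose cannot be told apart from time.

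Against TSA day 4 or day 0, A05 members differed at TSA day 8 in both directions. BnaA05g02030D had 0.417, 0.294 and 0.291 CPM at TSA day 4 and 21.4 and 29.2 CPM at day 8. BnaA05g04000D had 31.2, 31.0 and 36.4 CPM at TSA day 4 and 0 and 0.267 CPM at day 8. BnaA05g02910D had 81.1, 92.2 and 83.7 CPM at day 0 and 0.053 and 0.038 CPM at TSA day 8, both below the level of 3 counts. It was already lower at TSA day 2, with 21.8, 18.4 and 28.1 CPM, and at TSA day 4, with 8.32, 10.1 and 13.4 CPM. BnaA05g05930D had at most 0.378 CPM at day 0 and 154 and 119 CPM at TSA day 8. Most of that rise was present at TSA day 2, with 64.2, 72.1 and 98.0 CPM, and TSA day 4, with 62.4, 80.2 and 83.5 CPM.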

How the data were processed

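All results come from the raw counts of reads per gene that the authors deposited for 17 libraries. Aligner, counter, build and annotation were "not given in the sources used here". Per the submitters' processing notes, the tool named is limma, without its version. The authors' log2 CPM and fold change tables were not used.

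Columns were matched to samples by title. Genes were filtered with filterByExpr and tested with the quasi-likelihood test of edgeR 4.0.16 (R 4.3.3; TMM scaling, robust, 1 coefficient per group over 17 libraries, two-sided, Benjamini-Hochberg over 64330 genes). The SE is the absolute log2 fold change divided by the square root of F. Log2 CPM used a prior count of 2. The test was run on simulated counts first. Depth ran from 2716279 to 31407037 counts, where 3 counts stand for 0.787 and 0.0835 CPM. DESeq2 1.42.0 was an alternative.

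The members and lists were chosen with earlier results of these data known. Members are named by a rule: per block the 3 most abundant, the 2 most and 2 least variable with at least 10 CPM, the first and last, the nearest tested neighbours, and per comparison the called member with the lowest p in each direction among those with at least 10 CPM in a compared group. P-values measure only the spread between these samples. Assembly Da-Ae served for chromosome names only.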

Additional observations from a re-analysis of the deposited data

How the results depend on the processing

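The number of members called, higher and lower summed, gave 16 counts (2 blocks in 8 comparisons). All 16 stayed within 1.5 times under RLE size factors, DESeq2 and no low-count filter, and 15 of 16 under library totals. The exception was heat-only day 4 against day 2 in C04, with 183 instead of 112. Over all genes library totals gave 7670 higher and 28040 lower there, against 14267 and 14918. Leaving out 1 library, the C04 count ran from 73 (without heat-only day 4 replicate 2) to 134. From TSA day 2 to day 4 it ran from 11 to 31 in A05, against 36, and from 3 to 10 in C04, against 9, lowest without TSA day 2 replicate 1. Over all genes that fit had 745 higher and 598 lower, against 2596 and 1518 in the main fit. Pairing by replicate number was not shown: the labels do not state it, and in no comparison were all correlations of same-numbered libraries over 0.1, although they were 0.295, 0.0801 and 0.227 for heat-only day 4 against day 2, and 0.276, 0.0789 and 0.498 for TSA day 4 against day 2. With the replicate block all 16 counts stayed within 1.5 times, for example 298 in A05 and 267 in C04 for TSA at day 2. Over all genes that fit had 22356 higher and 20351 lower. Counted by direction, 9 counts moved and 23 stayed under library totals, 2 and 30 under DESeq2, and 1 and 31 under RLE. With 1 library left out, 24 moved and 160 stayed. For TSA at day 4 in C04, library totals gave 120 higher and 98 lower, against 58 and 167. Over all genes they gave 41352 and 9825 there, against 25947 and 17566.

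With members of at least 5 CPM only, the mean A05 deviation changed sign at day 0, from -0.13 to 0.0016. It was 0.098 at TSA day 2 (0.20 in the main setting), 0.22 at TSA day 4 (0.32) and 0.024 at TSA day 8 (0.012). The C04 deviation was then -0.41 at TSA day 2 (-0.20) and -2.59 at TSA day 8 (-1.78). A prior count of 0.5 gave -2.39 for C04 at TSA day 8, and 0.23 and 0.0048 for A05 at TSA day 2 and day 8. Without the 5 most abundant members the A05 share of both blocks at TSA day 8 was 85.8% instead of 73.4%. The alternative without heat-only replicate 1 and the division at C04 number 6490 were chosen after seeing the data. Depth limits the zeros of day 0 replicate 3.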
